A study of Mus musculus with 4 samples.

Results

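Retinoid metabolism and its nuclear receptors were followed in mouse bone marrow progenitors by 8 genes: the retinal reductase gene Dhrs3, the aldehyde dehydrogenase genes Aldh1a1, Aldh1a7 and Aldh2, the retinoic acid receptor genes Rara, Rarb and Rarg, and the retinoid X receptor gene Rxra. All probe sets that the array annotation assigns to these symbols were taken, 15 probe sets of 8 genes among 18193 named genes. The genes were chosen by their role and with their log2 intensities on these 4 arrays already known, so every value of theirs below is a description without a test.

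Gene expression was measured on 4 Affymetrix arrays, 1 per group. Smo-deficient LSK and Smo-deficient MP cells came from mice labelled Smo flox/flox, Mx1Cre+. WT LSK and WT MP cells came from mice labelled Smo flox/flox, Mx1Cre-. Smo encodes Smoothened, which passes on the hedgehog signal, and Mx1-Cre is switched on by interferon in blood cells and also acts in other tissues. All groups, controls included, carried the floxed alleles and received the interferon inducer polyI:C, 3 injections of 20 ug/g, and marrow was taken 6 weeks later. LSK is the marrow fraction without lineage markers but with Sca-1 and c-Kit on the surface, and it contains the stem cells. MP cells are the Sca-1-negative myeloid progenitors. Marrow of 4 mice per genotype, of both sexes, was pooled before the sort, so each genotype is 1 pool and no group has a replicate. Genotype, pool and the mix of sexes in a pool cannot be told apart. The strain label reads C57BL/6x130 for Smo-deficient LSK, C57BL/6x129 for WT LSK, C57BL/6x132 for Smo-deficient MP and C57BL/6x131 for WT MP. The last number thus steps by 1 from array to array, although each pool of marrow gave both an LSK and an MP array, so it is not read here as a difference in strain. The ages of the mice are not in the labels.

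Cells take up vitamin A as retinol, oxidise it reversibly to retinal, and oxidise retinal irreversibly to retinoic acid. Dhrs3 turns retinal back into retinol, while Aldh1a1 makes retinoic acid. Retinoic acid binds the receptors encoded by Rara, Rarb and Rarg, which sit on DNA as pairs with a retinoid X receptor. In blood formation, retinoic acid drives granulocyte maturation through Rara, and Rarg is known for supporting mouse stem cells. Aldh2 clears toxic aldehydes in mitochondria and protects blood stem cells from them.

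The promoters of Aldh1a1 and Aldh1a7 are shown first because these neighbouring genes are near copies of each other, and their values on the arrays are described next to each other. The windows are RefSeq sequence of build GRCm38.p6, from 250 bases before to 50 bases after an annotated start. The Aldh1a1 window lies at chr19:20601718-20602017 on the plus strand and is 1 of its 2 windows. The Aldh1a7 window lies at chr19:20727507-20727806 on the minus strand. Over the last 150 bases the windows were identical at 142 positions (94.7%) without a gap, and capitals mark the 8 that differ. A global alignment of the whole windows matched 224 of 282 aligned bases, 79.4%.

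Aldh1a1: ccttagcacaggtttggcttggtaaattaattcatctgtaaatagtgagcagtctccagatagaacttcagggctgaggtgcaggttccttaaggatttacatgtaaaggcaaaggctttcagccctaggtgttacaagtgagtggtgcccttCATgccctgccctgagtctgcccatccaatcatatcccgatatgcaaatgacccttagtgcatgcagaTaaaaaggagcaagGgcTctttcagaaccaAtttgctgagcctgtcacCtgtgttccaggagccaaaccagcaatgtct
Aldh1a7: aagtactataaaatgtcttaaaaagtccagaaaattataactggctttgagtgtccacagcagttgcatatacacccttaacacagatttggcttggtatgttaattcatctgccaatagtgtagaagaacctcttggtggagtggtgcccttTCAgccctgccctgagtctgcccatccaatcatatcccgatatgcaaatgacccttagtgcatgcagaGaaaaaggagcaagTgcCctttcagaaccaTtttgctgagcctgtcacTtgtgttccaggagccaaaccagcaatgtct

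The Dhrs3 and Rarb promoters are shown because both genes are known to be induced by retinoic acid, and Dhrs3 had the largest genotype difference of the 8 genes in LSK. The Dhrs3 window shown lies at chr4:144892577-144892876 on the plus strand, and its other windows, not shown, start at 144892827 and 144892887. The Rarb window lies at chr14:16575427-16575726 on the minus strand. All 15 promoter windows of the 7 genes that had any were searched on both strands for direct repeats of 2 hexamers, each being the motif AGGTCA, the motif AGTTCA, the motif GGGTCA or the motif GGTTCA, with a spacer of 1, 2 or 5 bases. Only the Rarb window held a repeat, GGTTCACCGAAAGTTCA with a spacer of 5, in capitals below. There were 36 bases between it and the start. Of 32851 windows of all genes, 0.0974% held a repeat with a spacer of 5, 0.268% with a spacer of 2 and 0.222% with a spacer of 1. Single hexamers, which every such repeat contains, were found in 43.7% of windows of all genes and in 7 of the 15 windows here.

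Dhrs3: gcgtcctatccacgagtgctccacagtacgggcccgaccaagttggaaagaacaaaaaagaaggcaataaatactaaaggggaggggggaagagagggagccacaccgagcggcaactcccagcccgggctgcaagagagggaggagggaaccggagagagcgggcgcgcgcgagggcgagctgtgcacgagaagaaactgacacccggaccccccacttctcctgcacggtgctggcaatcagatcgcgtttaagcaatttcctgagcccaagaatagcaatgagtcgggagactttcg
Rarb: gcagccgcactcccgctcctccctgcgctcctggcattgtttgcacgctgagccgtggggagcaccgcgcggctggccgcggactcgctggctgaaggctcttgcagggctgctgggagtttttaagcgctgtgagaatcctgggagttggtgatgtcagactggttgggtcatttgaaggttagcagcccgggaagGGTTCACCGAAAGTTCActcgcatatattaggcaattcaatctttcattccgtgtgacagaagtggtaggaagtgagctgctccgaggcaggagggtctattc

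The labels were checked on the arrays before the retinoid genes were read. On Smo probe set 1427049_s_at, the log2 value was 6.13 in Smo-deficient LSK against 10.81 in WT LSK, and 6.36 in Smo-deficient MP against 10.40 in WT MP. The loss was smaller on 1427048_at, at 6.96 against 10.02 in LSK and 7.94 against 9.72 in MP. The dim Smo probe set 1442215_at showed no such loss, with genotype differences of 0.16 in LSK and -0.29 in MP. Kit, a gene of the sort gate, lay between 12.31 and 12.65 on the 4 arrays, and the Sca-1 gene Ly6a was not analysed here. All 5 measured stem cell markers (Procr, Mecom, Hlf, Slamf1 and Ndn) rose in LSK against MP with limma, beside 16.4% of the 11904 genes tested. Ndn read 6.24 in Smo-deficient MP and 6.38 in WT MP, and Procr read 7.44 and 6.76. These 2 markers thus passed the filter on dim probe sets, given below, through their LSK values. Median intensities of the arrays were between 149.1 and 150.3. The 3′ minus 5′ difference of the Gapdh control, a sign of RNA integrity, was 1.78 on the log2 scale in Smo-deficient LSK and 1.57 to 1.60 on the other 3 arrays. That of Actb was 1.53 in Smo-deficient LSK against 1.31 in Smo-deficient MP, and 1.55 in WT LSK against 1.34 in WT MP, so it was higher in LSK in both pools. The 9 probe sets of the hybridisation spikes, which are added at fixed amounts, differed between Smo-deficient and WT cells by 0.15 ± 0.05 (SD, log2) in LSK and by -0.32 ± 0.11 in MP, and between LSK and MP by 0.52 ± 0.09 in the Smo-deficient pool and 0.05 ± 0.07 in the WT pool. The 12 probe sets of the poly-A spikes differed between Smo-deficient and WT cells by -0.20 ± 0.09 in LSK and -0.25 ± 0.12 in MP, and between LSK and MP by 0.46 ± 0.25 in the Smo-deficient pool and 0.41 ± 0.18 in the WT pool. These LSK minus MP differences are about as large as the smallest rises in LSK described for other retinoid genes. The part of these controls in the results was not tested.

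Dim probe sets were filtered at a mean log2 value of 7.23, the 50th percentile. Past this filter were 7 of the 8 genes, all but Rarb, and 12 of the 15 probe sets. A gene is represented by its probe set with the highest mean, and levels of different probe sets are not set against each other. Where a spread is given, all probe sets were put into 20 bins by brightness, and the scaled median absolute deviation of the difference within the gene's bin was taken. It says how far most probe sets of that brightness lie apart between arrays, and no replicate error stands behind it.

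Of the 8 genes, Dhrs3 differed most between genotypes in LSK cells. Its probe set 1448390_a_at had a log2 value of 11.26 in Smo-deficient LSK and 9.82 in WT LSK. In MP cells it read 10.50 in Smo-deficient cells and 9.74 in WT cells. Both Smo-deficient arrays were above both WT arrays. The log2 difference between genotypes was 1.45 in LSK, which is 2.72-fold and 6.5 times the spread of 0.22, and 0.76 in MP, which is 1.69-fold and 3.0 times the spread of 0.25. The populations differed little in the WT pool, where LSK minus MP was 0.08, and more in the Smo-deficient pool, at 0.77. The genotype difference in LSK was thus larger than that in MP by 0.69, a value that has no test with 1 array per group. In these bulk samples, a different share of cells that hold the transcript and a different amount of it per cell cannot be told apart. Dhrs3 has a single probe set on the array, so no other reading of the gene could be set beside it.

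Several lists of cell markers were higher in Smo-deficient LSK, as Dhrs3 was, and some of them also in Smo-deficient MP. Lymphoid priming markers were higher in Smo-deficient LSK for 6 of 6 genes, with a summed intensity of 18670 in Smo-deficient LSK and 6244 in WT LSK. Their sum in MP was 4764 in Smo-deficient and 2443 in WT cells, with 6 of 6 higher. Mature neutrophil markers were higher for 7 of 7 genes in LSK and in MP, with sums of 116900 in Smo-deficient LSK, 73710 in WT LSK, 101600 in Smo-deficient MP and 89290 in WT MP. Macrophage markers were higher in Smo-deficient LSK for 7 of 8 genes (sums of 3431 and 2140 in Smo-deficient and WT LSK, 3028 and 2788 in Smo-deficient and WT MP), but in MP only 3 of 8 were higher, with a median difference of -0.10. B cell markers were higher for 7 of 7 in LSK and 6 of 7 in MP (2956 and 1851 in Smo-deficient and WT LSK, 2193 and 1762 in Smo-deficient and WT MP). Granulocyte and monocyte progenitor markers were higher in Smo-deficient cells for 6 of 6 genes in each population (62310 and 44340 in Smo-deficient and WT LSK, 112900 and 79260 in Smo-deficient and WT MP). In LSK, markers of T and NK cells were higher in Smo-deficient cells for 4 of 6 genes, of dendritic cells for 3 of 6, of mature erythroid cells for 3 of 3 and of stroma and endothelium for 1 of 8. Stem cell markers were higher there for 3 of 5 genes, and mast cell and basophil markers for 3 of 7. Over all genes past the filter, the median genotype difference was -0.02 in LSK and -0.05 in MP. Part of these counts rests on dim probe sets. Rag1, Ebf1, Marco, Cd3g, Hba-a1, Fcer1a and Cma1 did not pass the filter. Nor did 3 of the 6 dendritic cell genes (Siglech, Cd209a and Ccr7) and 5 of the 8 stroma and endothelium genes (Col1a1, Col3a1, Cxcl12, Lepr and Cdh5). The part of these cells in the Dhrs3 difference was not tested.

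**Figure D1:**
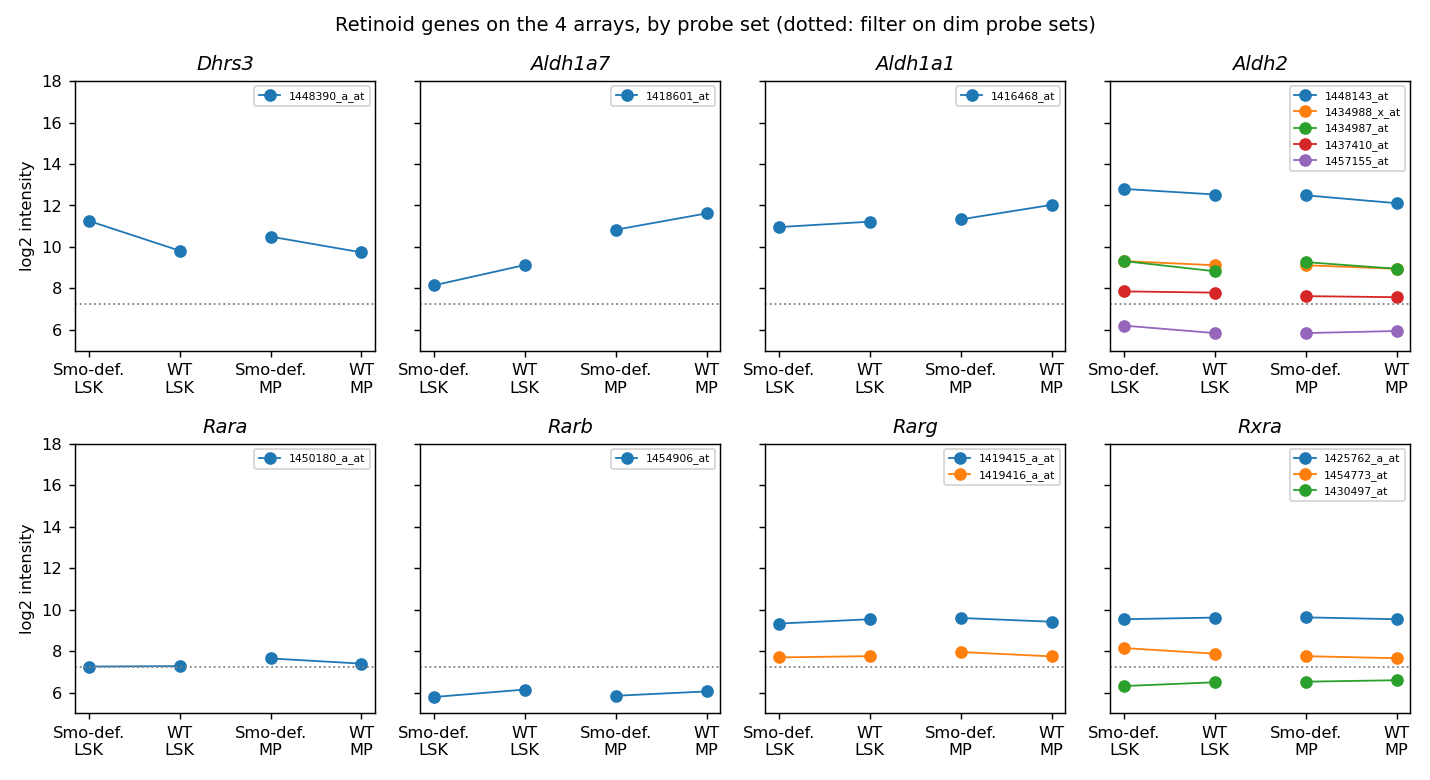
Log2 intensity of every probe set of the 8 genes (vertical axis) on the 4 arrays (horizontal axis), Smo-deficient left of WT within LSK and within MP. Each point is 1 array, lines join the genotypes of 1 population, and the dotted line is the filter at 7.23. Dhrs3 stands at 11.26 in Smo-deficient LSK against 9.82 in WT LSK, and Aldh1a7 is lower in both LSK arrays than in both MP arrays.

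Aldh1a7 was much lower in LSK than in MP cells, and lower in Smo-deficient than in WT cells of each population. Its probe set 1418601_at read 8.15 in Smo-deficient LSK and 10.83 in Smo-deficient MP, a log2 difference of -2.69. In the WT pool it read 9.13 in LSK and 11.62 in MP, a difference of -2.49. The LSK and MP arrays did not overlap, and the mean difference of -2.59 corresponds to a 6.01-fold lower level in LSK, 7.7 times the spread. Between genotypes, the differences were -0.99 in LSK and -0.79 in MP, 4.5 and 3.1 times the spread. The difference in LSK was 1.99-fold, just under the 2-fold threshold, and passed it after quantile normalization of the deposited values.

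Aldh1a1, which encodes the main retinal-oxidising enzyme of this gene pair, followed the same order of arrays with smaller differences. Its probe set 1416468_at read 10.96 in Smo-deficient LSK, 11.22 in WT LSK, 11.33 in Smo-deficient MP and 12.03 in WT MP. LSK minus MP was -0.37 in the Smo-deficient pool and -0.81 in the WT pool, with a mean of -0.59. The genotype difference was -0.26 in LSK, 1.2 times the spread, and -0.71 in MP, 3.1 times the spread. Both genes were thus lowest in Smo-deficient LSK and highest in WT MP. Transcripts of near copies can share probes, and whether the probe sets of Aldh1a1 and Aldh1a7 read each other's transcripts was not tested.

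Erythroid and megakaryocyte progenitor markers differed alongside the 2 genes. Against MP, 4 of these 6 markers fell in LSK with limma and 1 rose, the platelet gene Gp1bb. Between genotypes, 0 of 6 were higher in Smo-deficient LSK, with a summed intensity of 19150 in Smo-deficient LSK and 36240 in WT LSK. In MP the sum was 49720 in Smo-deficient and 64160 in WT cells, again with 0 of 6 higher in Smo-deficient cells. All 6 were above the filter. Mast cell and basophil markers also fell in LSK for 5 of the 5 that were tested, with summed intensities of 6179 in Smo-deficient LSK, 11160 in Smo-deficient MP, 4760 in WT LSK and 8398 in WT MP, while Fcer1a and Cma1 were below the filter. All 6 granulocyte and monocyte progenitor markers fell in LSK as well. Of all 11904 genes past the filter, 7.54% fell in LSK and 16.4% rose. The part of the marked cells in the values of Aldh1a1 and Aldh1a7 was not tested.

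Aldh2 differed little between the groups. Its brightest probe set, 1448143_at, read 12.80 in Smo-deficient LSK, 12.53 in WT LSK, 12.49 in Smo-deficient MP and 12.11 in WT MP. The Smo-deficient array was the higher one in each population, by 0.26 in LSK and 0.38 in MP, which is 1.7 and 2.0 times the spread. The other 4 probe sets had genotype differences from 0.07 to 0.49 in LSK and from -0.09 to 0.32 in MP. LSK minus MP was 0.30 in the Smo-deficient pool and 0.42 in the WT pool.

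The receptor genes were the most even of the set. Rarg read 9.33 in Smo-deficient LSK, 9.54 in WT LSK, 9.60 in Smo-deficient MP and 9.42 in WT MP on 1419415_a_at. The genotype difference was -0.20 in LSK and 0.19 in MP, both smaller than the spread of such differences, and the other Rarg probe set gave -0.06 and 0.21. Rara read 7.26 in Smo-deficient LSK, 7.28 in WT LSK, 7.65 in Smo-deficient MP and 7.40 in WT MP, close to the level of the filter on all 4 arrays. Its genotype difference was -0.02 in LSK and 0.25 in MP.

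Rxra, the common partner of these receptors, read 9.54 in Smo-deficient LSK, 9.62 in WT LSK, 9.63 in Smo-deficient MP and 9.54 in WT MP on 1425762_a_at. The 4 arrays thus lay within 0.09 on the log2 scale. The other Rxra probe set past the filter, 1454773_at, read 8.15 in Smo-deficient LSK, 7.88 in WT LSK, 7.76 in Smo-deficient MP and 7.66 in WT MP, and the dim 1430497_at lay between 6.32 and 6.60. Their genotype differences in LSK were 0.27 and -0.18, so the probe sets of Rxra disagreed in sign there. Rarb lay between 5.79 and 6.15 on 1454906_at, below the filter on each array. Its genotype difference was -0.37 in LSK and -0.22 in MP, at a brightness where little can be read from it.

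**Figure D2:**
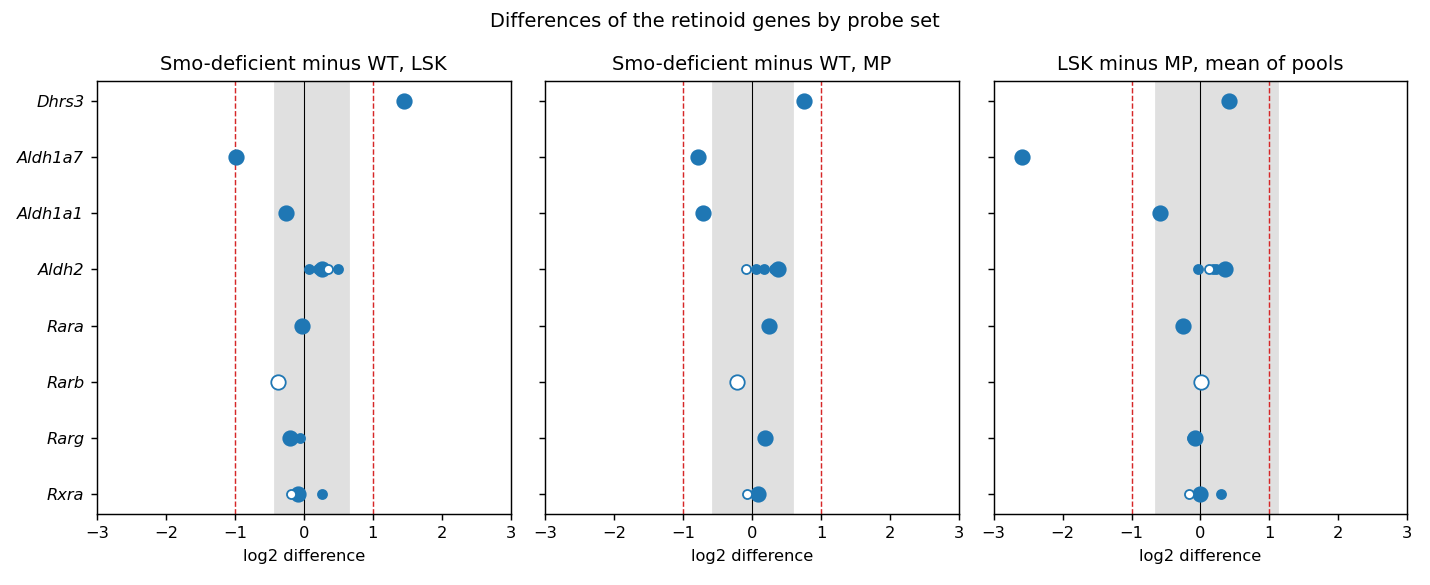
Log2 difference of each probe set of the 8 genes in 3 comparisons (horizontal axes), Smo-deficient minus WT in LSK, Smo-deficient minus WT in MP, and LSK minus MP as the mean of both pools. Large points are the probe sets that represent a gene, open points are below the filter, grey bands hold the central 95% of 11904 genes and dashed lines mark 2-fold. Dhrs3 lies past 2-fold in LSK at 1.45 and Aldh1a7 at -2.59 in LSK minus MP, while the receptor genes lie inside the bands.

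Counted over the 8 genes, Dhrs3 alone (1 of 8) was higher by 2-fold or more in Smo-deficient LSK and 0 were 2-fold lower. Of the 11904 genes past the filter, represented in the same way, 0.689% were 2-fold higher and 0.26% were 2-fold lower. In MP 0 of the 8 were 2-fold in either direction, beside 0.269% of all genes higher and 0.294% lower. Between populations, 0 were 2-fold higher in LSK and 1 was lower (Aldh1a7), beside 3.44% and 1.18%. The members were picked with these values known, so the shares are given as context only.

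At 1.5-fold, Dhrs3 was higher and Aldh1a7 lower in Smo-deficient LSK, where 3.14% of all genes were higher and 0.924% lower. In Smo-deficient MP, Dhrs3 was higher and both Aldh1a1 and Aldh1a7 were lower, beside 2.56% and 2.24% of all genes. In LSK against MP, Aldh1a1 and Aldh1a7 were lower and 0 of the 8 higher, beside 2.99% lower and 9.75% higher. The median of the 8 genes was -0.14 for the genotype difference in LSK, 0.14 for that in MP and -0.04 for LSK minus MP. Over the 7 genes past the filter, the medians were -0.08, 0.19 and -0.08. Over all genes past the filter they were -0.02, -0.05 and 0.0.

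The genes whose levels over the 4 arrays ran closest to Dhrs3, Aldh1a7 and Aldh1a1 were found among 11897 other genes past the filter, by the root mean square difference of log2 values centred on each gene's mean. For Dhrs3 the 5 closest were the ribonuclease gene Ang (0.091), AA467197 (0.123), the signalling adaptor gene Pik3ap1 (0.123), the galectin gene Lgals3 (0.13) and the neutrophil chemokine gene Cxcl2 (0.138). Their genotype differences were between 1.13 and 1.31 in LSK and between 0.56 and 0.89 in MP, against 1.45 and 0.76 for Dhrs3. For Aldh1a7 they were the transcriptional cofactor gene Cited4 (0.08), the protease gene Hpn (0.104), the sphingosine kinase gene Sphk1 (0.203), the sodium pump subunit gene Atp1b2 (0.229) and the anion transporter gene Slc26a1 (0.23). Cited4, Hpn and Slc26a1 were dimmer than the filter level in Smo-deficient LSK, at 6.95, 6.37 and 6.44, so their differences there are uncertain. AA467197 was likewise dim in both WT arrays.

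For Aldh1a1 the closest were Xk (0.028), which encodes a red cell membrane protein, Klhl12 (0.031), Tmem41b (0.037), Phf10 (0.038) and Tlcd1 (0.043). The likeness rests on 4 arrays and describes these arrays only.

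**Figure D3:**
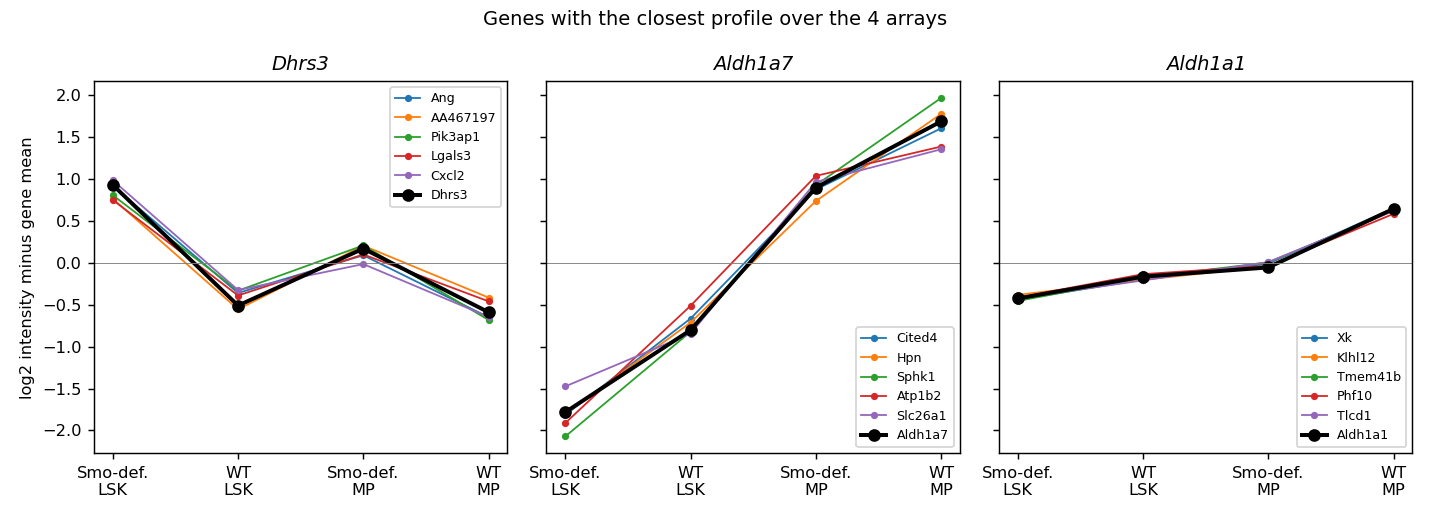
Log2 intensity minus the gene's own mean (vertical axis) on the 4 arrays (horizontal axis) for Dhrs3, Aldh1a7 and Aldh1a1 in black and the 5 genes closest to each in colour. Dhrs3 and its neighbours are highest in Smo-deficient LSK, and Aldh1a7 and its neighbours are lowest there and highest in WT MP.

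Other genes linked to retinoids, 92 in 7 lists, were then read, of which 82 were measured and 50 were past the filter. The lists reach beyond retinoid handling, to nuclear receptor coregulators, RXR partner receptors and other aldehyde dehydrogenases. LSK was compared with MP by limma with the pool as a block, with Benjamini-Hochberg adjustment over all 22518 probe sets past the filter. The lists were chosen with earlier results of these data known, so their calls and shares are not independent of that choice. Of the 50 genes, 15 rose in LSK (30.0%) and 1 fell (2.0%), beside 16.4% of all 11904 genes that rose and 7.54% that fell. Of the rises, 5 were of other aldehyde dehydrogenases, 4 of coregulators and 3 of RXR partner receptors. In the lists of uptake, of interconversion, and of synthesis and breakdown, 0 of 1, 1 of 9 and 0 of 3 rose. The share of 30.0% thus does not describe retinoid handling as such. At an unadjusted p under 0.05, 21 of the 50 were higher and 3 lower, beside 23.5% and 14.2% of all genes. The share of calls that were rises was 68.5% over all genes, and 55.2% after quantile normalization. The block leaves 1 residual degree of freedom, so limma draws each variance towards that of probe sets of like brightness. The SE and p-values thus rest on this shared variance and on how far 2 pools of different genotype differ in LSK minus MP. They do not measure the spread between mice. Without the pool as a block, 6 of the 16 calls were left, those of Nr4a1, Tgm2, Nrip1, Aldh1l1, Ncoa3 and Aldh5a1.

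Enzymes that interconvert retinol and retinal, the step at which Dhrs3 acts, mostly did not pass. Of 9 past the filter, 1 rose in LSK, the retinal reductase gene Rdh11 (log2 difference 0.53 ± 0.13 SE, limma adjusted p = 0.032), while another Rdh11 probe set differed by 0.06. At an unadjusted p under 0.05, 4 of the 9 were higher and 0 lower. Rdh12, of the same family, read 8.57 in Smo-deficient LSK, 7.64 in WT LSK, 7.40 in Smo-deficient MP and 7.41 in WT MP. Only the Smo-deficient LSK array stood apart, with a genotype difference of 0.93 in LSK, but the other Rdh12 probe set differed by 0.05 in LSK. Of the 3 measured genes of retinoic acid synthesis and breakdown past the filter, Aldh8a1, Cyp26a1 and Cyp26b1, 0 passed limma's adjusted threshold and 1 was lower at an unadjusted p under 0.05. Cyp26a1, which breaks down retinoic acid, read 7.70 in Smo-deficient LSK and 8.01 in Smo-deficient MP, and 7.71 in WT LSK and 8.07 in WT MP (limma adjusted p = 0.07). Aldh1a2 and Aldh1a3, which also encode enzymes that make retinoic acid, were below the filter. Of the uptake, binding and storage genes, 8 of 9 measured were below the filter.

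Several nuclear receptor cofactors rose in LSK. Of 13 genes in the list of other receptors and coregulators, 4 rose and 0 fell, and 7 were higher and 0 lower at an unadjusted p under 0.05. Those that rose were the corepressor gene Nrip1 (1.10 ± 0.11 SE, limma adjusted p = 0.00111) and the coactivator genes Ncoa3 (0.80), Ncoa1 (0.62) and Ncoa2 (0.42). Nrip1 read 11.45 in Smo-deficient LSK and 10.29 in Smo-deficient MP, and 11.39 in WT LSK and 10.35 in WT MP. Both LSK arrays were above both MP arrays, and the genotypes lay within 0.07 of each other. Its other probe sets past the filter differed by -0.14 to 0.93, and the other probe set of Ncoa3 by 0.37. The other probe sets past the filter differed by 0.47 for Ncoa1, and by 0.15 and 0.27 for Ncoa2, for which the WT pool gave 0.05 and -0.03. Among the RXR partner receptors, 3 of 5 rose: the orphan receptor genes Nr4a1 (2.24 ± 0.10 SE, limma adjusted p = 0.000116) and Nr4a2 (0.81), and the vitamin D receptor gene Vdr (0.44). Nr4a1 read 13.10 in Smo-deficient LSK and 10.76 in Smo-deficient MP, and 12.75 in WT LSK and 10.62 in WT MP. It has 1 probe set, with no overlap between LSK and MP arrays.

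Of 9 retinoic acid response genes past the filter, 2 rose in LSK and 0 fell, and 2 were higher and 1 lower at an unadjusted p under 0.05. Tgm2, a transglutaminase gene that retinoic acid induces in several cell types, read 12.09 in Smo-deficient LSK and 9.53 in Smo-deficient MP, and 12.33 in WT LSK and 10.70 in WT MP. Its LSK minus MP difference was 2.56 in the Smo-deficient pool and 1.63 in the WT pool (mean 2.10 ± 0.21 SE, limma adjusted p = 0.00117). On 3 more of its probe sets past the filter the mean was 1.71 to 2.04, but on 1426004_a_at, also past it, 0.08. The genotype difference of Tgm2 was -0.24 in LSK and -1.17 in MP, opposite in direction to that of Dhrs3. The same 3 probe sets gave -1.03 to -1.13 in MP, while 1426004_a_at gave -0.09. Plaat3, a phospholipase and acyltransferase gene, rose by 0.58. Ccr9, a chemokine receptor gene that retinoic acid induces in T cells, read 7.20 in Smo-deficient LSK and 5.94 in WT LSK on a probe set below the filter, and its other 4 probe sets differed by -0.02 to 0.08.

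Among aldehyde dehydrogenases outside the member list, several rose in LSK, where Aldh1a1 and Aldh1a7 were lower. Of 12 past the filter, 5 rose in LSK and 1 fell. Those that rose were the folate enzyme gene Aldh1l1 (1.05 ± 0.11 SE, limma adjusted p = 0.00144), the GABA breakdown gene Aldh5a1 (0.88), the lysine breakdown gene Aldh7a1 (0.68), the valine breakdown gene Aldh6a1 (0.56) and the fatty aldehyde gene Aldh3a2 (0.45). Aldh9a1 fell by 0.22. Aldh3a2 and Aldh9a1 are named here after their values were seen. Another Aldh1l1 probe set and 2 of Aldh7a1 were below the filter, at 0.01, 0.09 and -0.27.

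**Figure D4:**
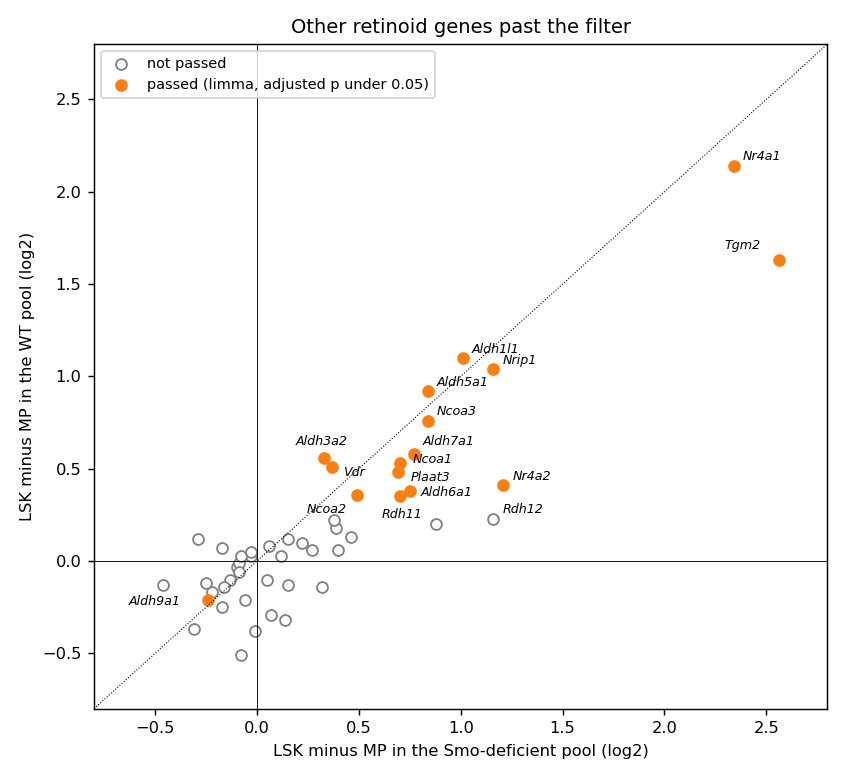
LSK minus MP on the log2 scale in the Smo-deficient pool (horizontal axis) and in the WT pool (vertical axis) for the 50 other retinoid genes past the filter. Each point is 1 gene, filled where limma passed it, and the dotted line marks equal differences in both pools. Nr4a1 and Tgm2 lie farthest out, at 2.34 and 2.56 in the Smo-deficient pool.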

How the data were processed

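Values are the authors' deposited intensity table for 4 arrays, made with RMA per the submitters' processing notes. RMA corrects background, normalizes the arrays to each other and sums probes to probe sets. The deposited distributions were alike in their medians but not equal. Their upper quartiles were 609.7 in Smo-deficient LSK, 591.5 in WT LSK, 543.1 in Smo-deficient MP and 563.9 in WT MP. The part of this in the LSK minus MP calls was not tested. The version and the genome build are not given in the sources used here. Per the labels' protocols, 20 ng of total RNA went through 2 rounds of amplification. Intensities ran from 12.3 to 44290.5, so they were read as linear and log2 was taken without a pseudocount. It can remove a change that most genes share. The number of arrays limits the precision.

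Of 45101 probe sets, 64 controls were set aside. Among the others, 34945 had 1 gene in the platform's annotation, 932 several and 9160 none there. Entrez identifiers of all 8 members matched RefSeq. The 22518 probe sets with a mean above the 50th percentile were fitted with limma 3.58.1 in R 4.3.3 (lmFit, eBayes with trend, two-sided), LSK against MP, with the pool as a block. The pairing comes from the series' design, in which both populations were sorted from the same pooled marrow. An adjusted p under 0.05 passed. The fit was tested on simulated data. Genotypes, with 1 array per group, were not tested, and 2-fold and 1.5-fold differences were counted. Promoter windows (RefSeq, GRCm38.p6) were aligned with Biopython 1.88.

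Members and lists were chosen with earlier results of these data known. Named from the 7 lists of other retinoid genes were up to 4 genes per list that passed, by size, and those with a genotype difference of at least 2-fold, or of 0.75 on the log2 scale in lists where none reached it. For the 3 members with the widest range, the 5 genes of closest profile were named. Of 177 listed symbols, those of 13 marker lists included, 158 were measured. Alternatives were quantile normalization, cyclic loess, a pseudocount of 32, no filter, a filter at the 75th percentile, no block, each pool alone, the median over probe sets and a 1.5-fold threshold.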

Additional observations from a re-analysis of the deposited data

Results flagged for a closer look

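The genotype difference had opposite signs in LSK and MP for 3 of the 8 retinoid genes, by their representative probe sets. With 1 array per group the difference between the populations was not tested. The share of all genes with opposite signs was not counted, so the count is not a trait of these genes. The median genotype difference over all genes past the filter was -0.02 in LSK and -0.05 in MP. Rarg differed by -0.20 in LSK and 0.19 in MP, a gap of -0.39 that is larger than its spread of 0.24. Rara differed by -0.02 and 0.25, a gap of -0.27 beside a spread of 0.25. Rxra differed by -0.08 and 0.09, a gap of -0.16 that is within its spread of 0.24.

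Among the other retinoid genes named in the text, 5 that were past the filter had opposite signs, likewise untested. The dim Aldh1a2 and Aldh1a3 had them too. Genes with a difference that rounded to 0.0 were left out, such as Rdh12, at 0.93 in LSK and -0.0 in MP. Of the 5, Nr4a2 had the widest gap, 0.81, from 0.61 in LSK and -0.19 in MP. Its other 2 probe sets past the filter gave gaps of 0.85 and -0.19. The gaps of Plaat3 (0.21), Ncoa1 (0.17), Vdr (-0.14) and Nrip1 (0.12) were close to or within their spreads of 0.20 to 0.26.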

How the results depend on the processing

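Of 112 differences of single members recomputed under the alternatives, 109 moved by less than the spread and 0 of those at least 2-fold changed sign. The others were Aldh2 in MP as the median of its probe sets (0.17) and Dhrs3 in LSK minus MP with the Smo-deficient pool alone (0.77) or the WT pool alone (0.08). For the 5 members with 1 probe set, the median over probe sets is the same value, so it could not move. Members at least 2-fold in Smo-deficient LSK numbered 2 after quantile normalization, when Aldh1a7 reached the threshold. At 1.5-fold they numbered 2 in LSK, 3 in MP and 2 in LSK against MP. Over all probe sets, 3395 rose and 1618 fell in LSK. The filter at the 75th percentile, which tests fewer probe sets, gave 2206 rises, and quantile normalization gave 2559 falls, for which the cause was not tested. Without the replicate block (the pool), 918 rose and 140 fell. Of the other retinoid genes, 15 rose and 1 fell. The 75th percentile filter gave 9 rises and 1 fall. It tested 9 of these 16, the fall of Aldh9a1 among them, and all 9 passed again. Fits without the block gave 6 rises and 0 falls by limma, no filter gave 0 falls (2 and 3 of the 50 were lower at an unadjusted p under 0.05), and quantile normalization gave 2. The calls of Vdr and Aldh3a2 were lost without the filter and after quantile normalization, and that of Aldh9a1 without the filter. Cyclic loess and the pseudocount lost 0 of the 16 calls. The replicate block is the paired analysis of LSK and MP by pool, since the labels give all arrays replicate number 1, which pairs nothing. Dim probe sets, Rarb and most genes of retinoid uptake among them, limit what could be seen.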
